A study of Mus musculus with 4 samples.

Results

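The immediate early and heat shock genes are 34 genes of early response transcription factors, their feedback genes and inducible chaperones, taken by symbol from the mouse probes of the array through the accession each probe carries. Of the 34 genes, 33 had a probe (49 probes) and 32 entered the comparison among 15961 genes tested. Of these 15961, 10418 had a symbol, as all members do. The others were counted by the identifier of their probe, and some of them may repeat a gene. All shares over all genes below include them. No probe matched Hspa1b, and the probe of Egr3 was not well above background in any channel, so neither was tested. Probes entered when the scanner software called both knockout arrays, or both wild-type arrays, well above background in Cy5, and a gene was represented by its brightest probe. RNA came from postnatal day 1 mice. Each labelling reaction used 0.5 µg of total RNA. Green fluorescent collecting duct and ureteric bud cells were sorted from HoxB7CreEGFP+; PRR flox/flox mice, called knockout here, and from CreEGFP+ PRR+/+ mice, called wild type. Cre and the fluorescent protein were thus carried by both genotypes. PRR is the (pro)renin receptor, encoded by Atp6ap2. The HoxB7 promoter is active in the ureteric bud, the epithelium that branches into the collecting ducts, so the deletion and the sort both rest on that promoter, and cells in which Cre left an allele whole would be sorted too. Wild-type RNA came as pools 1 and 2. The strain, the number of animals behind a pool, and whether the knockout arrays held separate pools are not given in the sources used here, so p-values cover no more than the spread of these arrays, and that spread may be technical.

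Immediate early genes are transcribed within minutes of a stimulus, without new protein synthesis, from promoters already bound by factors such as SRF, the ternary complex factors and CREB. Their products are transcription factors (AP-1, Egr and Klf proteins, Nr4a1), and enzymes and RNA-binding proteins that shut the response off again. Heat shock factor 1 drives the inducible chaperones when unfolded protein builds up. In epithelia both programs answer growth factors, flow, osmotic and oxidative stress, and they are also known to be induced while a tissue is dissociated into single cells.

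The study held 4 arrays of 1 slide, scanned in 1 session. On both KO_vs_WT arrays knockout RNA was labelled with Cy5 and wild-type pool 1 or 2 with Cy3. On the WT_self arrays pool 1 or pool 2 carried both dyes. Cy3 of KO_vs_WT replicate 1 was almost empty, with 28 of 41174 probes well above background against 14935 to 18569 on the other arrays. Cy5 held 18421 to 22713 such probes, so knockout and wild type were compared in Cy5, as log2 intensity, with 2 arrays a genotype. The labels conflict, since titles swap the genotypes and descriptions swap pool 1 with pool 2 on the self arrays. Groups follow the source name of each channel, and every direction between genotypes below would turn if the titles were right. Directions between the pools in Cy5 would turn if the descriptions were right. Atp6ap2 itself had Cy5 log2 levels of 8.08 and 7.72 on the arrays labelled knockout and 8.37 and 8.51 in wild-type pools 1 and 2. Both knockout arrays were below both wild-type arrays, with a difference of -0.54 ± 0.17 (SE), but the limma adjusted p was 0.8. Pool 2 stood apart from the other 3 arrays in tubule genes, as given at the end.

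Upstream sequences are shown for the Hsp70 genes and for the members whose windows held a CArG box or a cyclic AMP response element, since SRF, CREB and heat shock factor 1 are known to act through such motifs. The RefSeq table of promoters (GRCm38.p6) held 27 of the 34 members. Ier2, Egr1, Hspa8, Egr3, Klf10, Myc and Hsp90aa1 were not matched in it. The 250 bases before each start were searched on both strands and compared with all 32851 promoters of 27025 genes in the table. A gene with several starts had several windows (35 for the 27 members) and was counted once. The Hspa1a and Hspa1b windows are printed whole, 5′ to 3′ towards the gene, with a pair of inverted heat shock repeats in capitals. Hspa1a lies at chr17:34972157-34972406 and Hspa1b at chr17:34959239-34959488, both on the minus strand.
Hspa1a: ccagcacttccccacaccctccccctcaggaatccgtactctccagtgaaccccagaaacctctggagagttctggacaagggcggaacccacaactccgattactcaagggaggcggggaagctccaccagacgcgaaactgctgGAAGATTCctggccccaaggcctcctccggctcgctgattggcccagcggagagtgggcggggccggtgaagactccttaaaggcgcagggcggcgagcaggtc
Hspa1b: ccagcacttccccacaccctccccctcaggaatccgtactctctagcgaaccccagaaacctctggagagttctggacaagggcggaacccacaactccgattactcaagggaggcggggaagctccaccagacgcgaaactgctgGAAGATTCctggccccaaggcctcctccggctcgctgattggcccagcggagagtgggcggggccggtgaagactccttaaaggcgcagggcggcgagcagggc
The windows of these inducible Hsp70 genes were identical at 247 of 250 bases (98.8%) and differed at 3. The capitals lie from position -104 to -97 before the start in both. The genes are near-identical copies, so RNA of Hspa1b may also be picked up by probes for Hspa1a, and the values of Hspa1a below are uncertain in that respect. This was not tested.

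The full heat shock element, 3 repeats of GAA in alternating orientation with 2 bases between them, was in 0 of the 27 members and in 0.514% of all genes. The shorter pair, GAANNTTC or TTCNNGAA, was searched after that result was seen. The pair was in the windows of 7 members (Fosl2, Jun, Egr2, Hspa1a, Hspa1b, Hsph1 and Hspb1) and in 14.5% of all genes. The CArG box, the site bound by SRF, was in the windows of Egr2 and Zfp36, and in those of 1.62% of all genes. Windows of 30 bases around it are printed with the box in capitals. That of Zfp36 is at chr7:28379267-28379296 (minus strand), and those of 2 starts of Egr2 are at chr10:67537484-67537513 and chr10:67537787-67537816 (plus strand).
Zfp36: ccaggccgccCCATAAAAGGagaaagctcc
Egr2, upstream start: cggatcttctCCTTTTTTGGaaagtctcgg
Egr2, downstream start: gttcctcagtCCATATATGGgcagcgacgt
The cyclic AMP response element TGACGTCA, the site bound by CREB, was in the windows of 3 members (Dusp1, Btg2 and Maff), beside 1.77% of all genes. Its 30-base windows, with the element in capitals, are at chr1:134079303-134079332 for Btg2 (minus strand), chr15:79347480-79347509 for Maff (plus strand) and chr17:26508597-26508626 for Dusp1 (minus strand).
Btg2: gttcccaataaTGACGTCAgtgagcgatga
Maff: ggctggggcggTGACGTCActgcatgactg
Dusp1: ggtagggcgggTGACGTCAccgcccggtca
The AP-1 site TGANTCA was in 0 of the 27 members and in 7.82% of all genes, and TATAAA was in the windows of Fos, Gadd45b and Gadd45g and in those of 14.3% of all genes. A match is a run of letters, not a bound site, and a window without one may have it elsewhere.

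In Cy5, 31 of the 32 genes tested had a higher mean in knockout than in wild type, and Hspa8 alone had a lower one. Over all genes tested 55.4% had a higher mean. The median difference was 0.27 on the log2 scale over the members and 0.02 over all genes. Under scaling by the 75th percentile the count of members higher in knockout was again 31, but there Mafk was lower (-0.0036) and Hspa8 higher (0.0062). In 21 of the 32 genes both knockout arrays lay above both wild-type arrays, as they did in 22.6% of all genes, and in 0 did both lie below, as in 17.2% of all genes. Fosl2 is counted in the 31 and the 21, although it entered the comparison through the knockout arrays alone. No gene passed limma's test at an adjusted p of 0.05 (0% of 15961 genes, with adjusted p from 0.8 to 0.987 over the members). Hence higher and lower below describe measured values and not calls. At an unadjusted limma p under 0.05 there were 8 members, all higher in knockout, as were 3.11% of all genes (497 higher and 173 lower). Leaving out the pool 1 array, WT_self replicate 1, changed the calls. With pool 2 as the only wild-type array, taken to vary like the knockout arrays, 4307 of 16381 genes passed, 2466 higher (15.1%) and 1841 lower. Among them were 8 members, all higher in knockout (Fosb, Jund, Egr1, Ier5, Klf6, Gadd45g, Hspa1a and Hsph1). With any other array left out the count was 0.

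**Figure D1:**
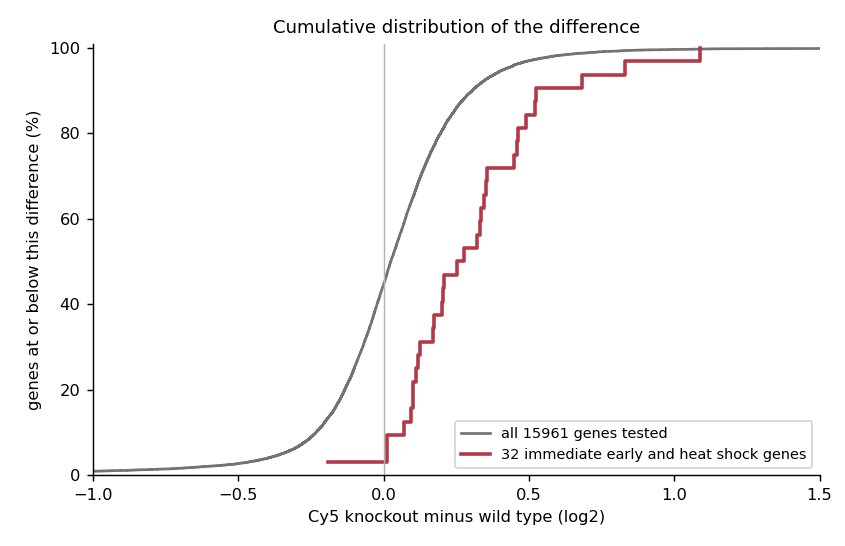
Cumulative percentage of genes (vertical axis) at or below each Cy5 difference, knockout minus wild type in log2 units (horizontal axis), for all 15961 genes tested and for the 32 immediate early and heat shock genes. The curve of the members lies to the right, with a median of 0.27 against 0.02.

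The AP-1 factors are basic leucine zipper proteins that pair as Fos-Jun dimers, and the small Maf proteins Maff and Mafk dimerise with them or with Cnc partners. All 8 had a higher mean in knockout, with a median difference of 0.33 log2 units. Both knockout arrays lay above both wild-type arrays in 6, Fosl2 among them. The share over all genes, here and for the groups of members below, was 22.6%. Fos, the founding member, had Cy5 log2 levels of 10.06 and 10.26 on the knockout arrays and 9.81 and 9.87 in wild-type pools 1 and 2. The groups did not overlap, and the difference was 0.32 ± 0.13 (SE, n = 2 arrays a genotype here and below), or 1.25-fold. Fosb, a close paralogue of Fos, had levels of 10.01 and 10.13 in knockout, 9.57 in pool 1 and 8.38 in pool 2. Its knockout arrays agreed closely while its pools lay far apart, so the difference of 1.09 ± 0.40 was 1.41-fold against pool 1 and 3.23-fold against pool 2. Jund, the most constitutive of the Jun proteins, had levels of 12.34 and 12.32 in knockout and 11.96 and 11.66 in the pools, a difference of 0.52 ± 0.15. These 3 genes, with Jun and Maff, had non-overlapping groups with the lower knockout array above the higher pool.

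Jun, the main partner of Fos, had levels of 9.61 and 9.75 in knockout and 9.51 and 9.44 in the pools, a difference of 0.20 ± 0.12. Maff had 7.30 and 7.61 in knockout and 6.94 and 7.26 in the pools, a difference of 0.35 ± 0.18, with the lower knockout array barely above pool 2. Junb, an AP-1 protein that tempers Jun, had 12 and 12.36 in knockout and 11.90 and 12.11 in the pools. The groups of Junb overlapped, with a difference of 0.17 ± 0.17, and a second probe gave 0.36. Mafk overlapped too, at 7.06 and 7.19 in knockout and 6.93 and 7.10 in the pools, a difference of 0.11 ± 0.13. Fosl2, also known as Fra-2, had 7.16 and 6.82 in knockout and 6.49 and 6.79 in the pools, a difference of 0.35 ± 0.18. Its probe was not well above background in pool 1, so Fosl2 entered through the knockout arrays alone, and knockout array 2 and pool 2 were nearly equal. Its other probe lay in a dark patch of the pool 1 array and was left out. With the patch kept the difference was 0.25.

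**Figure D2:**
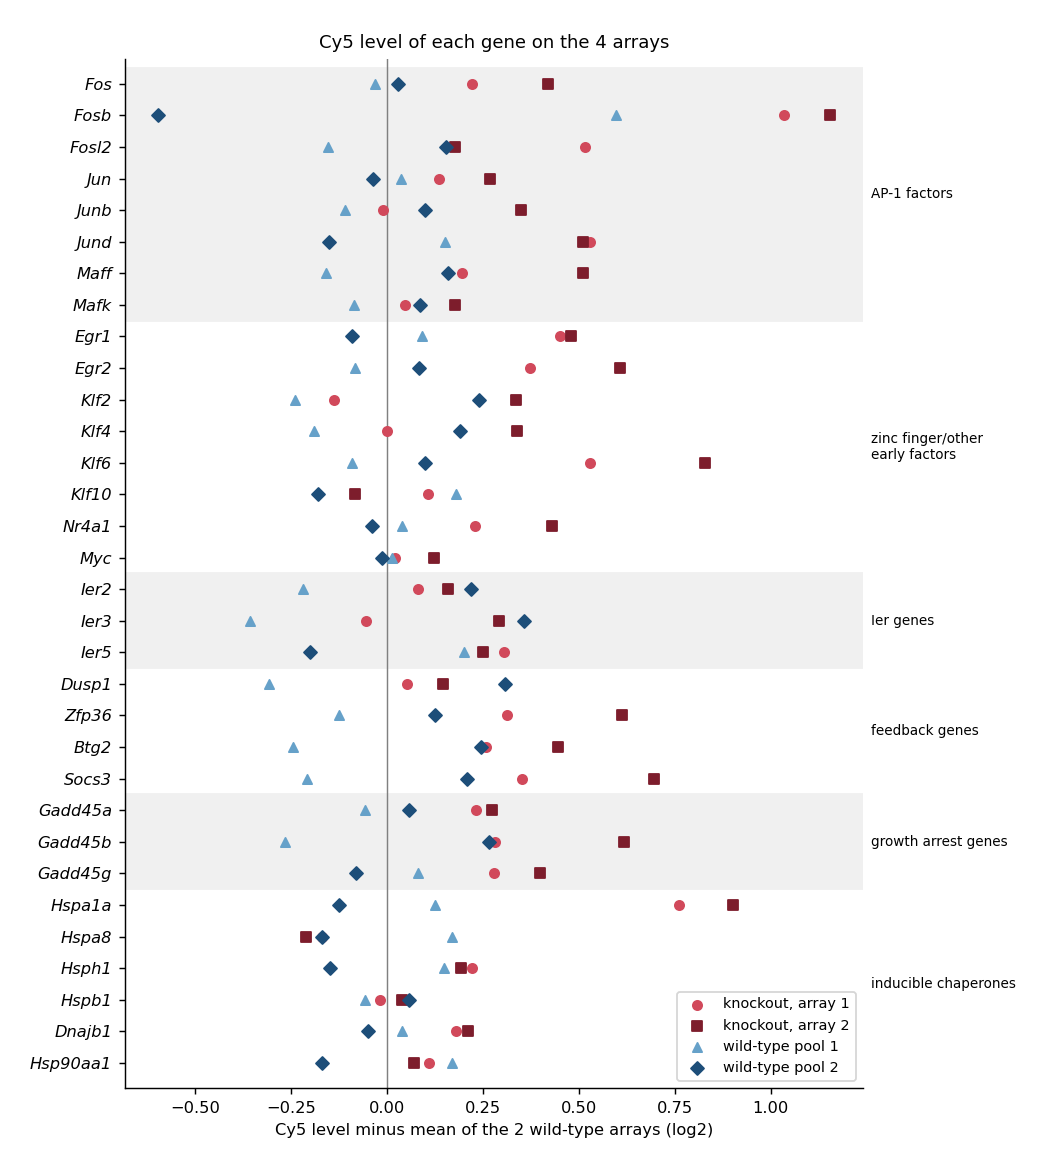
Cy5 level of each of the 32 genes tested on the 4 arrays, as the log2 distance from the mean of the 2 wild-type arrays (horizontal axis), with genes grouped by role (vertical axis) and 1 symbol an array. Symbols of the knockout arrays lie to the right of both wild-type symbols in 21 genes, and Fosb, Hspa1a and Klf6 lie farthest to the right.

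Among the zinc finger and other early factors all 8 tested had a higher mean in knockout, with a median difference of 0.25, and 5 had groups that did not overlap. Klf6, a zinc finger factor of the Krüppel-like family, had levels of 11.25 and 11.55 in knockout and 10.63 and 10.82 in the pools. Both knockout arrays were well above both pools, with a difference of 0.68 ± 0.16, or 1.71-fold against pool 1 and 1.5-fold against pool 2. Egr1, which couples SRF activity to growth and matrix genes, had 12.45 and 12.48 in knockout and 12.09 and 11.91 in the pools. Its knockout arrays were nearly equal and both above the pools, by 0.46 ± 0.12. Egr2 had 8.13 and 8.36 in knockout and 7.67 and 7.84 in the pools, a difference of 0.49 ± 0.14. Nr4a1, an orphan nuclear receptor also called Nur77, had 11.51 and 11.71 in knockout and 11.32 and 11.24 in the pools, a difference of 0.33 ± 0.13. Egr2 and Nr4a1 also had groups that did not overlap.

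Klf2, known for its response to flow, had levels of 8.54 and 9.01 in knockout and 8.43 and 8.91 in the pools. The arrays interleaved, and the difference was 0.10 ± 0.24. Klf4, a regulator of epithelial differentiation, had 10.36 on knockout array 1, 0.35 more on knockout array 2, and 10.17 and 10.55 in the pools, again interleaved, with a difference of 0.17 ± 0.20. Klf10, induced by TGF-beta, had 8.87 and 8.68 in knockout and 8.95 and 8.59 in the pools, a difference of 0.01 ± 0.17. Myc, a growth regulator induced early by mitogens, had 7.38 and 7.49 in knockout and 7.38 and 7.35 in the pools, a difference of 0.07 ± 0.11. Its groups did not overlap, but the lower knockout array and pool 1 were nearly equal. These 4 genes differed by less than their standard errors.

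Fos, Jun, Egr2 and Myc were each measured by 10 replicate spots on every array, which gives the spread within an array. The SD between the spots of a gene on 1 array was 0.07 to 0.20 log2 units. For Fos the spots ran from 10.14 to 10.45 (median 10.27) on knockout array 2 and from 9.75 to 9.99 (median 9.87) in pool 2, without overlap. On knockout array 1 they ran from 9.84 to 10.25 (median 10.09), which overlapped with the 9.71 to 10.01 (median 9.78) of pool 1, where 9 spots were used. For Egr2 the spots of knockout array 2, from 8.15 to 8.64 (median 8.32), lay above those of pool 2, from 7.68 to 8.03 (median 7.81). On knockout array 1 those of Egr2 ran from 7.87 to 8.45 (median 8.05) and in pool 1 from 7.44 to 7.85 (median 7.67), also without overlap, but the spots of knockout array 1 overlapped with those of pool 2. Spots of Jun and Myc overlapped between all 4 arrays. For Jun the lowest and highest spots were 9.46 and 9.74 on knockout array 1, 9.54 and 9.99 on knockout array 2, 9.31 and 9.67 in pool 1, and 9.28 and 9.56 in pool 2. Spots of 1 array share its labelling and hybridisation and are not replicates of a genotype.

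**Figure D3:**
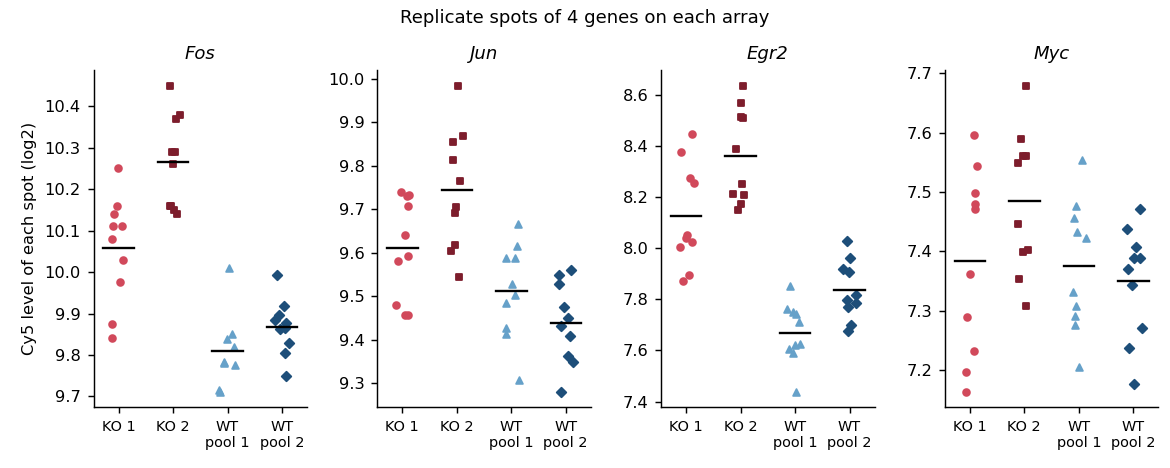
Cy5 log2 level (vertical axis, its own range for each gene) of the replicate spots of Fos, Jun, Egr2 and Myc on knockout arrays 1 and 2 and in wild-type pools 1 and 2, 1 point a spot and a bar at the mean. Spots of Egr2 on knockout array 2 lie above all its wild-type spots, and those of Myc overlap on all arrays.

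The Ier genes are named as immediate early response genes. Ier2 and Ier5 are related nuclear proteins, and Ier3 (IEX-1) is a regulator of survival and ERK signalling. All 3 had a higher mean in knockout but only Ier5 had groups that did not overlap. Ier5 had levels of 9.71 and 9.65 in knockout and 9.60 and 9.20 in the pools, a difference of 0.28 ± 0.17. Ier2 had 10.96 and 11.04 in knockout, between 10.66 in pool 1 and 11.10 in pool 2, with a difference of 0.13 ± 0.18. A second probe of Ier2 gave 0.52, with 7.54 and 7.72 in knockout, both above 7.33 in pool 1 and 6.90 in pool 2. Ier3 had 7.61 and 7.96 in knockout, likewise between 7.31 in pool 1 and 8.02 in pool 2, with a difference of 0.12 ± 0.28.

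Of the feedback genes, Dusp1 dephosphorylates MAP kinases, Zfp36 (tristetraprolin) and Btg2 promote decay of early messenger RNAs, and Socs3 blocks cytokine receptor signalling. All 4 had a higher mean in knockout, with a median difference of 0.41, and 3 had groups that did not overlap. Socs3 had levels of 8.60 and 8.95 in knockout and 8.04 and 8.46 in the pools, a difference of 0.52 ± 0.21. Zfp36 had 9.61 and 9.91 in knockout and 9.17 and 9.42 in the pools, a difference of 0.46 ± 0.17. Its other probe was above background on no array. Btg2 had 8.90 and 9.08 in knockout and 8.39 and 8.88 in the pools, so knockout array 1 and pool 2 were nearly equal. Its difference was 0.35 ± 0.20, against 0.08 from its other probe and 0.12 with the dark patch kept. Dusp1 had 8.14 and 8.23 in knockout, between 7.78 in pool 1 and 8.39 in pool 2, with a difference of 0.10 ± 0.23.

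The Gadd45 genes encode small stress sensors that bind MAP3K4 and halt the cell cycle. All 3 had both knockout arrays above both wild-type arrays. Gadd45b had levels of 8.55 and 8.89 in knockout and 8.01 and 8.54 in the pools, a difference of 0.45 ± 0.23 that was also 0.45 by its other probe. Gadd45g had 10.85 and 10.97 in knockout and 10.65 and 10.49 in the pools, a difference of 0.34 ± 0.13. Gadd45a, the p53-regulated member, had 7.53 and 7.58 in knockout and 7.25 and 7.36 in the pools, a difference of 0.25 ± 0.12. The gap between the lower knockout array and the higher pool was narrow for Gadd45b, and for Gadd45a and Gadd45g it exceeded the spread within either genotype.

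Among the inducible chaperones the differences were smaller, apart from Hspa1a. Hspa1a, the stress-inducible Hsp70, had levels of 9.83 and 9.97 in knockout and 9.19 and 8.94 in the pools. Both knockout arrays lay well above both pools, with a difference of 0.83 ± 0.14, 1.63-fold against pool 1 and 1.94-fold against pool 2. Its 4 probes gave differences of 0.31 to 0.83, all higher in knockout. Hsph1, the Hsp110 exchange factor of Hsp70, had 9.88 and 9.85 in knockout and 9.80 and 9.50 in the pools, a difference of 0.21 ± 0.15. Dnajb1, the Hsp40 that hands clients to Hsp70, had 11.43 and 11.46 in knockout and 11.29 and 11.20 in the pools. Its difference was 0.20 ± 0.11, against 0.09 from its other probe. These 3 genes had groups that did not overlap.

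Hsp90aa1, the inducible Hsp90, had levels of 11.65 and 11.61 in knockout, between 11.71 in pool 1 and 11.37 in pool 2, with a difference of 0.09 ± 0.16. Hspb1 (Hsp25 in mouse, a small heat shock protein) had 9.67 and 9.73 in knockout and 9.63 and 9.74 in the pools, a difference of 0.01 ± 0.12. Hspa8, the constitutive Hsc70, had 12.09 and 12.05 in knockout, 12.43 in pool 1 and 12.09 in pool 2. Its difference was -0.19 ± 0.16, made up of -0.36 against pool 1 and -0.02 against pool 2. A second probe of Hspa8 gave -0.06, with 11 and 10.72 in knockout, between 11.38 in pool 1 and 10.47 in pool 2. The median difference over the 6 chaperones was 0.15.

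Each pool was measured by 1 array, so the following differences have no test. They share the knockout arrays and are given side by side. Against pool 1 the median over the members was 0.35, with 29 of 32 higher in knockout, beside a median of 0.0019 and 50.5% over all genes. Against pool 2 it was 0.22, with 25 of 32 higher, beside 0.05 and 56.8% over all genes. Scaling by the 75th percentile moved the all-gene values against pool 2 to -0.07 and 45.6%, with the members at 0.47 and 29 of 32. Against pool 1, 6 members were at least 1.5-fold higher in knockout (Klf6, Zfp36, Btg2, Gadd45b, Socs3 and Hspa1a), as were 1.12% of all genes. Against pool 2 there were 4 (Fosb, Jund, Klf6 and Hspa1a), beside 6.89% of all genes. Klf6 and Hspa1a were past 1.5-fold against each pool, and 0.526% of all genes were. No member was 1.5-fold lower in knockout than in pool 1 or pool 2, where 0.507% and 5.49% of all genes were.

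On KO_vs_WT replicate 2 knockout (Cy5) and pool 2 (Cy3) were hybridised to the same spots, so this array gives a ratio free of differences between arrays, though open to dye effects. Its log2 ratio had a median of 0.28 over the members, 27 of 32 above 0, beside 0.05 and 56.5% over all genes. At least 1.5-fold higher were 5 members (Fosb, Jund, Egr1, Klf6 and Hspa1a), beside 6.45% of all genes, and 0 were 1.5-fold lower, beside 4.98%. Fosb had a log2 ratio of 1.40, Hspa1a 1.14, Klf6 0.76, Egr1 0.72 and Jund 0.62. Below 0 were Klf2 at -0.28, Hspa8 at -0.21, Ier2 at -0.12, Dusp1 at -0.10 and Fosl2 at -0.04. Second probes of Ier2 (0.66) and Hspa8 (0.08) were above 0, and that of Klf2 was below 0 (-0.03). Among genes above 0, a further probe was below 0 for Dnajb1 (-0.23), Hspa1a (-0.08) and Myc (-0.03). The remaining further probes that entered were above 0. On the self arrays, where both dyes carried the same pool, the largest absolute log2 ratio of a member was 0.24. Another probe of Hspa8 reached 0.40 there.

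**Figure D4:**
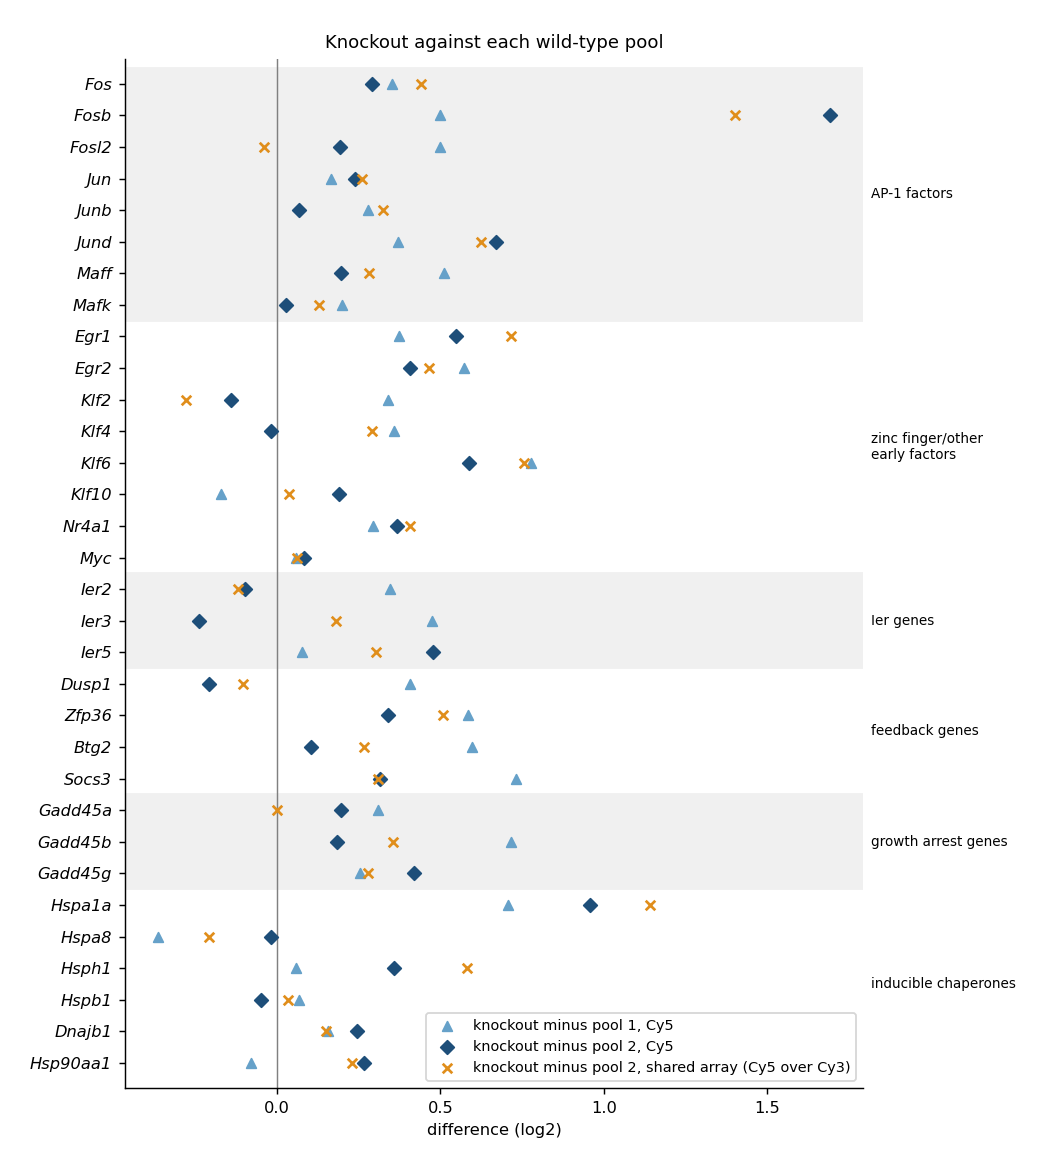
Log2 difference of knockout (horizontal axis) from wild-type pool 1 and pool 2 in Cy5 and from pool 2 on the shared array (Cy5 over Cy3), for each gene tested (vertical axis, grouped by role). Klf6 and Hspa1a lie above 0.5 by all 3 measures, whereas Ier2 and Dusp1 are above 0 against pool 1 and below it by both measures against pool 2. Each gene is drawn by its brightest probe, and a second probe of Ier2 was above 0 on the shared array (0.66).

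The 2 wild-type pools differed among themselves in many of the members. In Cy5 the median absolute difference between the pools was 0.30 over the members and 0.22 over all genes, against 0.14 and 0.09 between the knockout arrays. Fosb was 1.19 lower in pool 2 than in pool 1 on the log2 scale, past 1.5-fold lower as were 7.01% of all genes. Ier3 and Dusp1 were 0.71 and 0.62 higher in pool 2, past 1.5-fold as were 6.12% of all genes. The other dye measured the same pools on 3 arrays, normalised apart from Cy5. Fosb had Cy3 log2 levels of 8.34 in pool 1 and 7.57 and 7.49 on both arrays of pool 2, a difference of -0.81 (lower past 1.5-fold in 2.86% of all genes). Ier3 had 6.57 in pool 1 and 6.96 and 6.99 in pool 2, a difference of 0.40. Dusp1 had 6.86 in pool 1 and 7.33 and 7.22 in pool 2, a difference of 0.42, and in 0 members was pool 2 past 1.5-fold higher (3.35% of all genes). The low Fosb and the high Ier3 and Dusp1 of pool 2 were thus seen in both dyes, though smaller in Cy3. Both dyes of pool 1 were read from the same spots of 1 array, so the dyes are not independent repeats.

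Hspa1a had Cy3 levels of 7.98 in pool 1 and 7.66 and 7.79 in pool 2, a difference of -0.25 beside -0.25 in Cy5. Klf2 was higher in pool 2 by 0.48 in Cy5 and 0.56 in Cy3. Klf10 was lower there by -0.36 and -0.44, Hsp90aa1 by -0.35 and -0.37, and Ier5 by -0.40 and -0.35. Over all members the median difference, pool 2 minus pool 1, was 0.11 in Cy5 (all genes -0.04) and 0.08 in Cy3 (all genes -0.01). Higher in pool 2 were 18 of 32 in Cy5 (45.1% of all genes) and 19 of 32 in Cy3 (46.7% of all genes). Fosl2, Maff and Mafk were not well above background in Cy3 of pool 1. Between the knockout arrays the median of array 2 minus array 1 was 0.13 over the members and 0.01 over all genes. Higher on array 2 were 25 of 32 members, beside 51.8% of all genes. No member differed 1.5-fold between them, as 0.276% of all genes did upwards and 0.207% downwards. Klf2 differed most, by 0.47, and Junb was 0.35 higher on array 2.

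**Figure D5:**
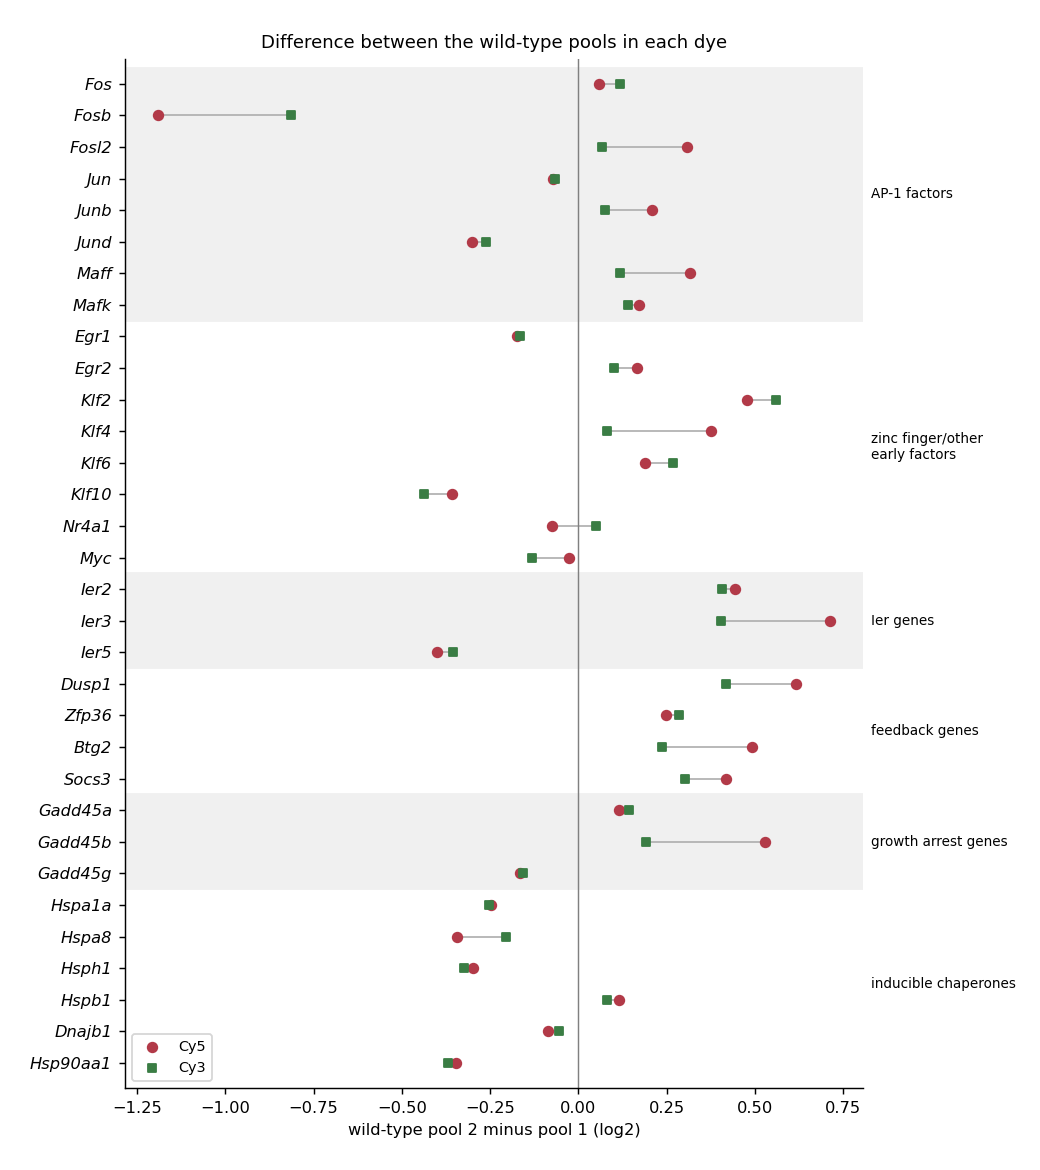
Log2 difference of wild-type pool 2 minus pool 1 (horizontal axis) in Cy5 and in Cy3 for each gene tested (vertical axis, grouped by role), with a line joining the dyes of a gene. Fosb lies farthest to the left in both dyes, and Klf2, Ier2, Ier3 and Dusp1 lie to the right at 0.40 or more in both. A second probe of Ier2, not drawn, was lower in pool 2 in both dyes (-0.155 in Cy3).

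Genes of the same pathways that are no members were described from lists by their function. The counts below stand beside the shares over all genes. These were 55.4% with a higher mean in knockout, 22.6% with both knockout arrays above the pools and 17.2% with both below. Of 46 other early response genes 38 were tested, 28 had a higher mean in knockout, 18 had both knockout arrays above and 3 both below the pools, and 0 passed limma's test. Their median difference was 0.19. The smallest p values were those of Sgk1, a kinase induced by aldosterone and stress, with levels of 10.40 and 10.63 in knockout and 9.36 and 9.02 in the pools (1.32 ± 0.17), Per1 (0.76 ± 0.14), Phlda1 (0.69 ± 0.16) and Atf3 (0.63 ± 0.18). Of 27 other chaperones and cochaperones, all tested, 15 had a higher mean in knockout, 7 had both knockout arrays above and 2 both below, and the median was 0.02, beside 0.02 over all genes. Bag1 (-0.23 ± 0.11), Cryab (-0.19 ± 0.13), Dnajb4 (0.18 ± 0.12) and Hspd1 (0.16 ± 0.11) had the smallest p values there. Of 17 upstream kinases and factors 13 were tested, 8 had a higher mean in knockout, 2 had both knockout arrays above and 1 both below, with a median of 0.02. Rela (0.36 ± 0.15), Stat3 (0.32 ± 0.20), Mapk9 (-0.20 ± 0.13) and Srf (0.28 ± 0.22) led that list. None of the chaperones or upstream genes passed the test.

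Markers of the sorted cells were present. Of 18 ureteric and collecting duct markers 17 were tested, all but Wnt11, with a median difference of 0.12. The list went both ways, with both knockout arrays above the pools in 6 genes (22.6% of all genes) and below them in 5 (17.2% of all genes). None passed limma's test. Hoxb7, whose promoter was used, had log2 levels of 11.37 and 11.50 in knockout and 11.67 and 11.16 in the pools. Among markers of other cells, the proximal tubule list differed most. Of its 8 genes 4 were tested, Lrp2, Cubn, Slc22a6 and Miox were not, and all 4 were lower on both knockout arrays, beside 17.2% of all genes. Its summed Cy5 intensity was 1640 and 1160 in knockout, 2280 in pool 1 and 21400 in pool 2. The loop of Henle list, with 5 of 5 tested, summed to 1860 and 1690 in knockout, 2130 in pool 1 and 7540 in pool 2. In 4 of its genes both knockout arrays lay below both pools, and 1 had a higher mean in knockout. Both sums were highest in pool 2, and pool 1 was also above both knockout arrays. The part of tubule RNA in the differences of the members was not tested. In such bulk samples fewer cells of a type and less RNA per cell cannot be told apart.

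Leukocyte markers (7 of 9 tested, not Laptm5 and Csf1r) summed to 1150 and 1010 in knockout and 1170 and 1100 in the pools, with a median difference of -0.12. Endothelial markers (4 of 8 tested, with Pecam1, Cdh5, Tie1 and Tek not tested) summed to 1060 and 863 against 1300 and 1020, with a median of -0.23. Stromal markers (7 of 8, not Lum) summed to 2870 and 2420 in knockout and 3480 and 1800 in the pools. Nephron progenitor markers (3 of 5, not Six2 and Meox1) summed to 527 and 462 against 580 and 522. The summed intensity of the early and heat shock genes was 46500 and 50300 in knockout and 41000 and 39100 in the pools. The part of other cell types in the differences between genotypes was not tested, and neither was that of tissue handling, for which no times are given in the sources used here.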

How the data were processed

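Members and lists were chosen with earlier results of these data known. RNA was labelled with Cy3 or Cy5 and read with Agilent Feature Extraction 10.7.3.1, per the file headers. Per the file headers, the columns used hold the intensity of a spot and of its surroundings (medians over pixels) and a processed intensity that the software adjusted for background and dye. A deposited log10 ratio (Cy5 over Cy3) with a p-value, both made by the software per the file headers, entered no test. From the intensity columns, normexp background correction (offset 50), log2 and quantile normalization over Cy5 of the 4 arrays and, apart, over Cy3 of 3 arrays were computed with limma 3.58.1 in R 4.3.3. Ratios on an array were loess normalized. Control spots, outlier flags and 599 spots of a dark patch on WT_self replicate 1 (21.6% of its brighter spots over 1 log2 unit low, against 0.127% elsewhere) were left out. No spot was saturated. Of 41174 probes, 22951 matched one of 16358 symbols through the RefSeq table of GRCm38.p6. limma's test was two-sided, with Benjamini-Hochberg adjustment over all genes and a threshold of 0.05. It was also run on simulated data, whose outcome is not reported here and from which no support is drawn. Named are all members, Atp6ap2 and, of the 3 further pathway lists, the 4 genes of smallest p. Marker lists are given by counts and sums, and Hoxb7 was named after its values were seen. Alternatives covered scaling, background, filter, probes, the patch, flags, log ratios, a replicate block and each array left out. Precision is limited by the 4 arrays. The result of 1 further marker list is not reported here.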

Additional observations from a re-analysis of the deposited data

How the results depend on the processing

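The members kept a higher median in knockout under every setting tried, from 0.12 to 0.39 (0.27 as reported). Scaling by the 75th percentile gave 0.39 against both pools, 0.44 against pool 1, 0.47 against pool 2, and 0.012 (Cy5) and 0.21 (Cy3) between the pools. There Mafk turned to -0.0036 and Hspa8 to 0.0062. The log ratio design takes in the almost empty Cy3 channel of KO_vs_WT replicate 1, while Cy3 of the other arrays had signal. It gave a median of 0.12 with 6 members not overlapping (12.7% of all genes). It turned Ier2 (-0.049), Ier3 (-0.063), Klf2 (-0.19), Dusp1 (-0.22) and Hspb1 (-0.048). Processed signals turned Myc (-0.095), Hspb1 (-0.021) and Hsp90aa1 (-0.46). Median centring in place of loess moved the shared array to 0.99, with all genes at 0.40. Leaving out 1 array at a time gave 0 to 4307 genes past the threshold (4307 without WT_self replicate 1), a median of 0.22 to 0.35 and 21 to 29 members not overlapping, beside 33.9% to 47.9% of all genes. Over these the differences ran from -0.0060 to 0.36 for Junb, -0.10 to 0.34 for Ier2, -0.23 to 0.52 for Ier3, -0.14 to 0.35 for Klf2, -0.021 to 0.36 for Klf4, -0.17 to 0.19 for Klf10, -0.21 to 0.43 for Dusp1, -0.046 to 0.066 for Hspb1 and -0.082 to 0.28 for Hsp90aa1. The causes were not tested. With the pool number as a replicate block, which pairs nothing by the labels, the median was 0.27, 21 members did not overlap and 0 genes passed. In all, 352 of 384 values of members kept direction and side of the threshold, 24 turned and 8 passed it. 20 members were higher in knockout under every setting. The settings reuse the same 4 arrays, and the share of all genes that kept their direction was not computed. Precision is limited by 4 arrays and, for Fosl2, by a signal near background.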
